A study of Mus musculus with 20 samples.

Results

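Cholesterol synthesis and its regulation were examined in the aged hippocampus through 32 genes: 19 enzymes of the pathway, 5 genes of the SREBP system that controls them, 5 genes that move, store or remove sterol, and 3 genes of the LXR system that responds to sterol excess. The genes were taken by name from the count table, but with earlier results of these data known. All 32 were among the 33119 rows and among the 21724 genes with enough counts to be tested. The RNA came from the hippocampi of 20 mice, all 16 months old, in 4 groups of 5: males and females with hAPOE3, and males and females with hAPOE4. Every mouse was homozygous for a targeted replacement, in which the coding part of mouse Apoe is exchanged for human APOE3 or APOE4, on a C57BL/6 background. No group carried the mouse protein, so each genotype comparison sets one human isoform against the other. The reads were assigned to mouse transcripts, which hold no human APOE, so the counts do not check which isoform a mouse carried.

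Cholesterol hardly crosses the blood-brain barrier, and the brain makes its own from acetyl-CoA through mevalonate, squalene and lanosterol. When membrane sterol is low, SCAP escorts SREBP from the endoplasmic reticulum to be cleaved, and the released factor switches on the enzymes of the pathway, whereas INSIG proteins hold SCAP back when sterol is plentiful. Oxysterols activate LXR, which raises sterol export, and neurons dispose of cholesterol through CYP46A1, whose product 24-hydroxycholesterol leaves the brain. APOE is the main sterol carrier between astrocytes and neurons.

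SREBP binds short sterol regulatory elements next to boxes for the partner factors NF-Y and Sp1. RefSeq promoters (GRCm38.p6, 300 bases around the start of a gene) were matched to 27 of the 32 genes, with 27025 genes in the table. The letters CCAAT of the NF-Y box, read on both strands, occurred in 23 of the 27 (85.2%, against 41.1% of all genes), and the letters GGGCGG of the Sp1 box in 24 (88.9%, against 38.2%). The 27025 genes were not limited to those expressed here. Of 52 further sterol genes taken up later, 35 had a promoter, and 19 of these held the NF-Y letters and 26 the Sp1 letters. The sterol regulatory element TCACNCCAC occurred in 1 of the 27 promoters (3.70% against 1.44%), a stricter 10-letter form of it in 0 (0.0999% of all genes), and the E-box CACGTG in 5 (18.5% against 8.09%). The 1 gene with the sterol element was Hmgcs1, the HMG-CoA synthase that opens the mevalonate route. These 4 sequences belong to genes named later: Hmgcs1 varied with Msmo1 and with Idi1 from mouse to mouse, and the closest enzyme partner of Pmvk was Tm7sf2. Each is the 200 bases that end just before the RefSeq start, written 5′ to 3′ on the strand of the gene, with the letters of the sterol element, the NF-Y box and the Sp1 box in capitals on either strand.
Hmgcs1, chr13:119690151-119690350, plus strand: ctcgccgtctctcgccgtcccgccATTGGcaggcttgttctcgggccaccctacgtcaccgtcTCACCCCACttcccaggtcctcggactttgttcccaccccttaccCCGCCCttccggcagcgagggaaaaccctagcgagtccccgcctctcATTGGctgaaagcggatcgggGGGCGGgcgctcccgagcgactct
Msmo1, chr8:64733579-64733778, minus strand: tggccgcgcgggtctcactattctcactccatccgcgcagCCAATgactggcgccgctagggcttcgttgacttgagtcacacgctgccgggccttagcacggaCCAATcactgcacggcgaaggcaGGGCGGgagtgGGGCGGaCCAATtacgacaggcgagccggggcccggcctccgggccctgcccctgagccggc
Idi1, chr13:8885406-8885605, plus strand: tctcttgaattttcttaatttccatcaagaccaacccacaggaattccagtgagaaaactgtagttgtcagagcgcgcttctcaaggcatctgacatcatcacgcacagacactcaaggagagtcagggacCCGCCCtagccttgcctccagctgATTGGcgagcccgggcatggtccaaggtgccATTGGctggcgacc
Pmvk, chr3:89454341-89454540, plus strand: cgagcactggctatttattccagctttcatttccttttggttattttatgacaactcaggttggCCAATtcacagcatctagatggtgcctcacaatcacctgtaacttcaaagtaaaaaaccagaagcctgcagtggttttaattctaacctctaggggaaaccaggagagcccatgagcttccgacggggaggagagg
In Hmgcs1 the sterol element began 137 bases before the start (position -137), between NF-Y letters at -176 and Sp1 letters at -92. Msmo1 held NF-Y letters at -160, -96 and -55 and Sp1 letters at -73 and -62, and Idi1 held Sp1 letters at -69 and NF-Y letters at -45 and -14. Pmvk held 1 NF-Y match, at -136, and no Sp1 match in these 200 bases. Mvd, whose sequence is not shown and whose closest enzyme partner was Dhcr7, held NF-Y letters at -60 and -27 and Sp1 letters at -140. These are matches of letters, and binding was not measured. Whether they bear on the variation between mice was not tested.

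The estimated counts assigned to genes ran from 35778879 to 52520279 per mouse. After the data were seen, 5 hAPOE3 mice stood apart: the females S147 and S148 and the males S156, S157 and S158. They were picked by a score above 0.2 in a list of 20 nuclear genes of oxidative phosphorylation. The score is the mean log2 CPM of the listed genes, each centred over the 20 mice. It was 0.341 to 0.536 in the 5 mice, against -0.380 to -0.150 in the other 5 hAPOE3 mice and -0.257 to 0.080 in the 10 hAPOE4 mice. Long transcripts were also relatively low in them: the mean centred log2 CPM of 3948 genes with long transcripts minus that of 3947 genes with short ones was -0.397 to -0.305 in the 5 mice and -0.218 to 0.295 in the other 15. Scores of the 6 astrocyte markers were -0.351 to -0.136 in the 5 mice (summed 2536 to 3289 CPM), 0.020 to 0.208 in the other hAPOE3 mice (4169 to 4880 CPM) and -0.058 to 0.202 in hAPOE4 mice (3154 to 4513 CPM). The 3 males S158, S176 and S178 had thalamic marker scores of 1.98 to 2.27, against at most 0.022 in the remaining 17 mice, and 2 of them, S158 and S176, had the highest myelin scores (1.04 and 0.77, against at most 0.153 in the others). S158 also had a striatal marker score of 2.74, against at most 0.963 in the others. Choroid plexus markers ran from 63.7 to 6262 summed CPM over the mice. Their mean scores were 0.73 and 1.17 in hAPOE3 and hAPOE4 females, and -1.05 and -0.85 in hAPOE3 and hAPOE4 males (SD 1.88 to 2.42). The fit was repeated without the 5 mice for all 32 genes, and its values are given beside the results that moved.

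Per length, Cyp46a1 and Hmgcs1 led the list and the LXR gene Nr1h3 closed it. On the scale of CPM per kb of transcript, Cyp46a1 stood at 63.9 ± 10.2 (SD, n = 20), Hmgcs1 at 63.2 ± 7.44, Msmo1, the C-4 demethylase of the late pathway, at 39.2 ± 4.43, Fdps, the farnesyl diphosphate synthase, at 36.5 ± 5.84 and Srebf2, the SREBP form most tied to sterol synthesis, at 32.3 ± 4.83. Nr1h3, which encodes LXRα, was the lowest at 1.80 ± 0.290, while Nr1h2, which encodes LXRβ, stood at 18.5 ± 2.64. The only neighbours in this order whose ranges over the mice did not overlap were the last 2, Hsd17b7 and Nr1h3. The spread between mice was small: the median SD of log2 CPM within the groups was 0.18 over the 32 genes and 0.28 over all genes tested, with 0.10 for Scap and 0.52 for Npc1 at the ends. The 32 genes lay on 17 chromosomes, and 16 of them overlapped another annotated gene, so some of their reads could belong to a neighbour.

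**Figure D1:**
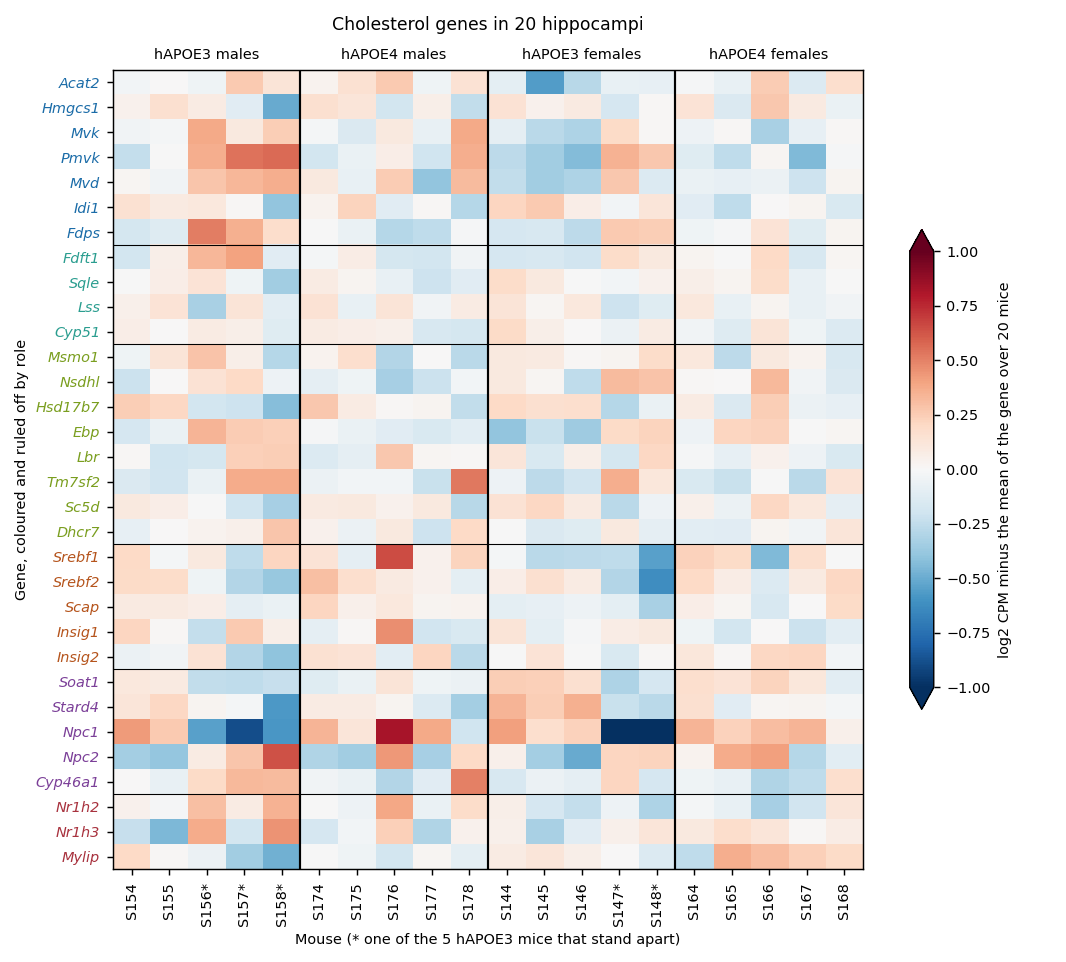
Log2 CPM of the 32 genes in each of the 20 mice, minus the mean of the gene. Columns are mice ordered by group, rows are genes ruled off by role, the colour scale ends at -1 and 1, and asterisks mark the 5 hAPOE3 mice that stood apart. Npc1 is the darkest row, low in those 5 mice and highest in S176, and no block of enzymes separates the groups.

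Whether APOE genotype changes sterol gene expression was asked in each sex and averaged over both. In hAPOE4 against hAPOE3 males 0 of the 32 genes passed an adjusted p of 0.05 with edgeR's quasi-likelihood test (0.621% of all genes did), and 1 had an unadjusted p under 0.05 (9.06% of all genes). In females 0 of 32 passed (0.667% of all genes), and 3 had an unadjusted p under 0.05 (10.1% of all genes). Averaged over the sexes 0 of 32 passed (2.45% of all genes), and 3 had an unadjusted p under 0.05 (17.9% of all genes). DESeq2's Wald test called 0 genes as well, with 1, 3 and 4 genes at an unadjusted p under 0.05. The median log2 fold change of the 32 genes was -0.03 in males and 0.02 in females, beside 0.00 for all genes in both sexes. In the fit over all 20 mice, the 95% interval of the log2 fold change lay within -0.5 and 0.5 for 28 genes in males, 29 in females and 31 on average, and within -1 and 1 for all but Npc1 in males. These limits depended on the mice used. Without the 5 mice that stood apart, female intervals that passed 0.5 in size included those of Ebp (0.22 to 0.61), Acat2 (0.09 to 0.60), Stard4 (-0.51 to -0.08) and Npc2 (-0.08 to 0.79). The hAPOE4 values lay wholly above or below the hAPOE3 values for 0 of the 32 genes in males (1.44% of all genes) and 0 in females (3.27% of all genes). The sign of many of these small estimates rested on the 5 mice that stood apart: without them it turned for 21 of the 32 genes in males, 12 in females and 20 on average.

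**Figure D2:**
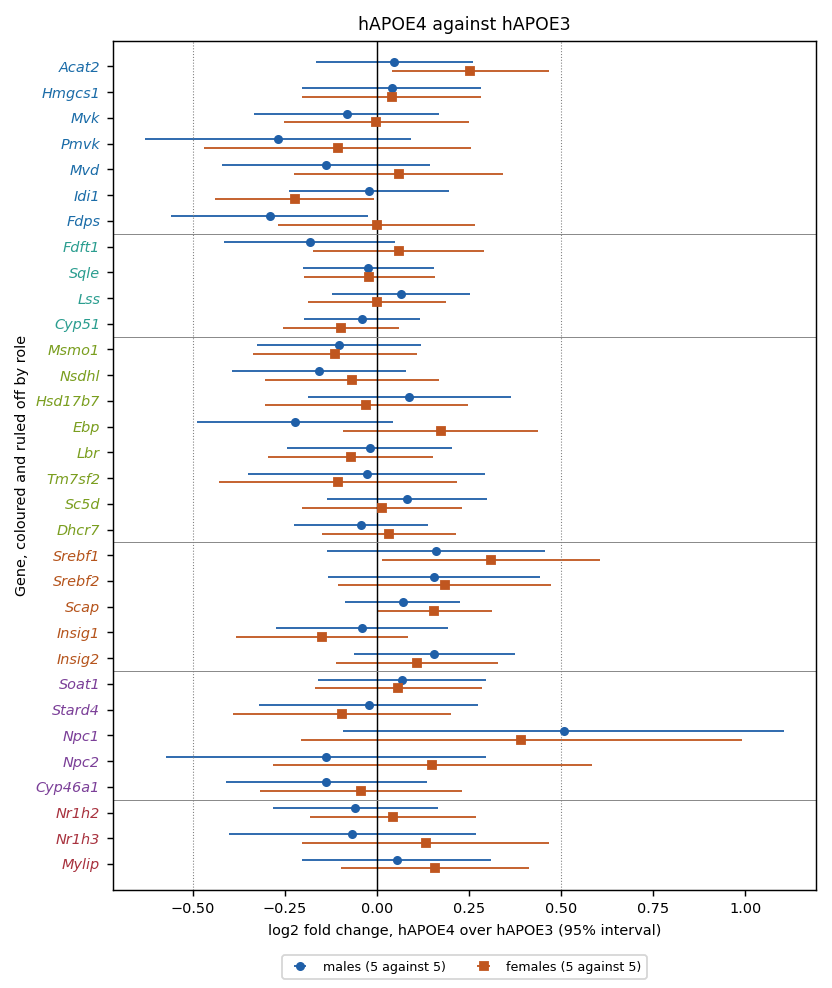
Log2 fold change of hAPOE4 over hAPOE3 for the 32 genes in males (circles) and females (squares), 5 against 5 mice. The 95% intervals are from the edgeR fit of all 20 mice, in which the groups share the estimate of spread, and dotted lines mark -0.5 and 0.5. The estimates lie close to 0 in both sexes, and the widest intervals are those of Npc1, up to 1.11 in males.

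Among the 7 genes that build isoprenoid precursors, 2 were higher and 5 lower in hAPOE4 mice on average, with a median log2 fold change of -0.04. When the 5 mice were left out, 5 were higher and 2 lower, with a median of 0.11. Fdps was the member with the smallest p in males. Its 5 hAPOE3 males had 44.1, 45.5, 56.2, 63.7 and 71.1 CPM, and its 5 hAPOE4 males 40.9, 41.8, 47.6, 49.3 and 49.7 CPM. The groups overlapped, and the 3 highest hAPOE3 values were those of S156, S157 and S158. The log2 fold change was -0.29 ± 0.13 (SE, 95% interval -0.56 to -0.02, adjusted p = 0.507 with edgeR), and it was 0.02 without the 5 mice that stood apart (adjusted p = 0.964). Acat2, the thiolase that makes acetoacetyl-CoA, had 20.7, 25.3, 28.7, 29.0 and 29.1 CPM in hAPOE3 females and 27.9, 29.0, 30.3, 34.5 and 36.6 CPM in hAPOE4 females. In 3 of the 5 hAPOE4 females the value exceeded every hAPOE3 female, and the estimate was 0.25 ± 0.10 (adjusted p = 0.381), or 0.35 without the 5 mice (adjusted p = 0.257). Idi1, the isomerase that makes dimethylallyl diphosphate, had 46.7, 49.9, 51.8, 55.4 and 56.9 CPM in hAPOE3 females and 40.0, 42.9, 43.9, 47.8 and 48.6 CPM in hAPOE4 females. Here 2 hAPOE4 values exceeded the lowest hAPOE3 value, that of S147, and the estimate was -0.22 ± 0.10 (adjusted p = 0.474). Pmvk, the phosphomevalonate kinase, had the largest average change of the group at -0.19 ± 0.12 (adjusted p = 0.441), and the estimate turned to 0.16 without the 5 mice (adjusted p = 0.463).

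The 4 genes of squalene and lanosterol formation and removal, Fdft1, Sqle, Lss and Cyp51, had averaged estimates between -0.07 and 0.03. Cyp51, the lanosterol demethylase, had the largest of these, -0.07 ± 0.05 (95% interval -0.18 to 0.04, adjusted p = 0.525), and its group means ran only from 54.3 to 58.1 CPM. Sqle, the squalene epoxidase, had an estimate of -0.02 in each sex, with a 95% interval of -0.20 to 0.15 in males and -0.20 to 0.16 in females. Fdft1, the squalene synthase, had group means from 75.3 to 85.4 CPM, with an estimate of -0.18 ± 0.11 in males (95% interval -0.41 to 0.05, adjusted p = 0.609) and 0.06 ± 0.11 in females. Its estimates without the 5 mice were -0.02 in males and 0.19 in females (adjusted p = 0.399). Of the 8 genes after lanosterol, 2 were higher and 6 lower in hAPOE4 mice on average, with a median of -0.04, and without the 5 mice 5 were higher and 3 lower, with a median of 0.02. The largest average change was that of Nsdhl, the sterol dehydrogenase of C-4 demethylation, at -0.11 ± 0.08 (adjusted p = 0.486), and it was 0.02 without the 5 mice. A mean over the 19 enzymes of centred log2 CPM summarised the pathway: in males it was 0.049 ± 0.079 with hAPOE3 and -0.014 ± 0.057 with hAPOE4, and in females -0.015 ± 0.082 and -0.020 ± 0.077 (SD, n = 5). The difference between the genotypes was -0.063 in males, smaller than the SD of the hAPOE3 males and larger than that of the hAPOE4 males. In females it was -0.004, smaller than the SD of either group.

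Of the 5 genes of the SREBP system, 4 were higher in hAPOE4 mice on average, with a median log2 fold change of 0.13 and 0 past the threshold. With the 5 mice left out, 3 were higher and 2 lower, and the median was 0.05. Srebf1, whose SREBP-1c product is tied more to fatty acids and is a target of LXR, had 42.3, 51.2, 51.3, 51.7 and 60.9 CPM in hAPOE3 females and 45.5, 61.5, 69.3, 70.4 and 72.4 CPM in hAPOE4 females. In males it had 51.6, 60.8, 65.8, 70.8 and 71.7 CPM with hAPOE3 and 57.8, 63.5, 67.8, 71.9 and 97.1 CPM with hAPOE4. In 4 of 5 hAPOE4 females the value exceeded every hAPOE3 female, while the males overlapped almost fully apart from S176. The averaged estimate was 0.23 ± 0.10 (95% interval 0.02 to 0.44, adjusted p = 0.222), and that in females 0.31 ± 0.14 (adjusted p = 0.469). They were 0.17 (adjusted p = 0.532) and 0.23 (adjusted p = 0.644) without the 5 mice. With the authors' factors of gene and mouse as offsets the female estimate was 0.18 (adjusted p = 0.750). Scap, the escort protein, had an averaged estimate of 0.11 ± 0.05 (adjusted p = 0.269), or 0.05 without the 5 mice, with 69.4 to 92.2 CPM in hAPOE3 and 77.4 to 101 CPM in hAPOE4 mice. Srebf2 had 105.6 to 184.5 CPM in hAPOE3 and 147.4 to 199.5 CPM in hAPOE4 mice, and its averaged estimate was 0.17 ± 0.10 (adjusted p = 0.374), which turned to -0.05 without the 5 mice (adjusted p = 0.761). Insig1, a retention factor that SREBP itself induces, was the 1 gene of the 5 with a lower average, -0.10 ± 0.08 (adjusted p = 0.559), and its highest value by far was 88.3 CPM in S176.

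Npc1, which with NPC2 lets cholesterol out of lysosomes, had the largest genotype difference of all 32 genes. Its hAPOE3 males had 32.8, 40.5, 41.6, 73.1 and 81.5 CPM and its hAPOE4 males 53.0, 66.0, 77.0, 78.9 and 107.7 CPM. Its hAPOE3 females had 27.3, 29.1, 68.4, 71.3 and 80.8 CPM and its hAPOE4 females 62.9, 71.3, 75.1, 77.0 and 77.0 CPM. The hAPOE3 values fell into a low and a high set with nothing between 41.6 and 68.4 CPM, and the low set was the 5 mice that stood apart. The averaged log2 fold change was 0.45 ± 0.20 (95% interval 0.03 to 0.87, adjusted p = 0.251), and without those 5 mice it was -0.02 (adjusted p = 0.960). The sequence of Npc1 is not shown, and its row overlaps Rmc1 on the other strand. Npc2 had 42.2 to 93.0 CPM in hAPOE3 and 47.0 to 80.6 CPM in hAPOE4 mice, and its averaged estimate was 0.01 ± 0.15 (95% interval -0.30 to 0.31, adjusted p = 0.988). Cyp46a1 had an averaged estimate of -0.09 ± 0.09 (95% interval -0.28 to 0.10, adjusted p = 0.648), with 189.6 CPM in the hAPOE4 male S178 and 108.6 to 167.8 CPM in the other 19 mice. Soat1, which esterifies cholesterol for storage, and Stard4, which carries it between membranes, had averaged estimates of 0.06 ± 0.08 and -0.06 ± 0.10. Without the 5 mice the averaged estimate was 0.34 for Npc2, 0.03 for Cyp46a1, -0.12 for Soat1 and -0.26 for Stard4.

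In the LXR system the averaged estimates over all 20 mice were also near 0. Mylip, the LXR-induced ligase that degrades lipoprotein receptors, had the largest average at 0.11 ± 0.09 (adjusted p = 0.551), and -0.04 without the 5 mice. Nr1h2 had an averaged estimate of -0.01 ± 0.08 (95% interval -0.17 to 0.15) and Nr1h3 one of 0.03 ± 0.11 (95% interval -0.20 to 0.27), and without the 5 mice these were 0.05 and 0.26. In whole tissue, fewer cells of a type and less RNA per cell cannot be told apart, and this holds for each gene described here.

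**Figure D3:**
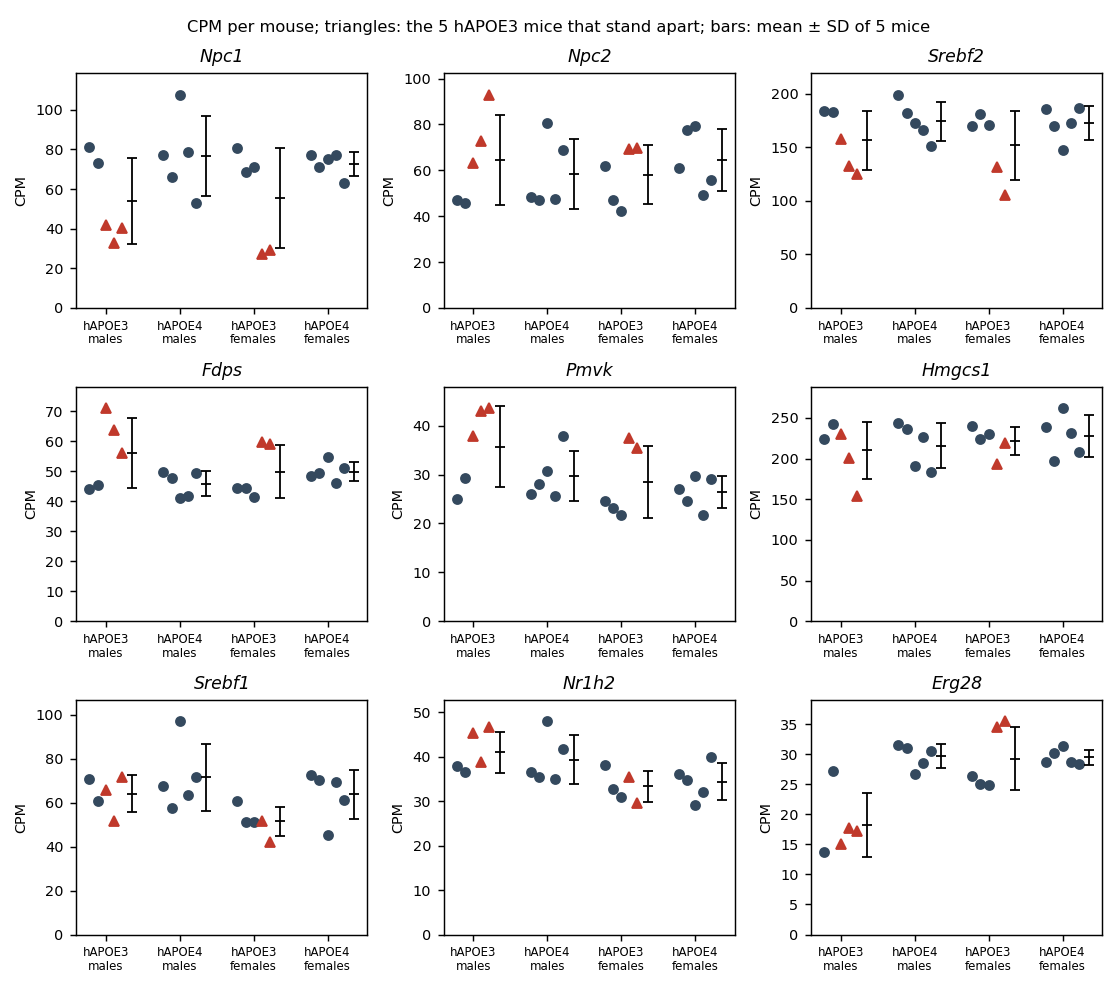
CPM of 9 genes in each mouse by group (5 mice each), with triangles for the 5 hAPOE3 mice that stood apart and bars for the mean and SD, where every vertical axis starts at 0. In Npc1 and Srebf2 the triangles lie below the other hAPOE3 mice, in Npc2, Fdps and Pmvk above them, and in Srebf1 and Nr1h2 among them.

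Sex was compared within each genotype and averaged over both. In hAPOE3 mice 0 of the 32 genes passed between females and males with edgeR (0.0414% of all genes), and 4 had an unadjusted p under 0.05 (5.22% of all genes), all lower in females. In hAPOE4 mice 0 passed (0.437% of all genes), and 0 had an unadjusted p under 0.05 (5.80% of all genes). Averaged over the genotypes 0 passed (0.129% of all genes), and 6 had an unadjusted p under 0.05, or 5 lower and 1 higher in females (10% of all genes). DESeq2 called 0 genes in each, with 4, 1 and 6 genes at an unadjusted p under 0.05. The median log2 fold change of the 32 genes averaged over the genotypes was -0.02, beside -0.01 for all genes. Without the 5 mice that stood apart the number at an unadjusted p under 0.05 was 0 in hAPOE3 mice (2.67% of all genes), 3 in hAPOE4 mice (7.70%), all higher in females, and 1 on average (6.16%), higher in females. The 3 genes were Mylip (0.27, adjusted p = 0.472), Ebp (0.19, adjusted p = 0.534) and Soat1 (0.16, adjusted p = 0.626), and the 1 gene was Soat1 (0.14, adjusted p = 0.780), all named after their values were seen. None of the 5 mice was hAPOE4, so the hAPOE4 mice compared were the same in both fits. Their largest log2 fold change among the 32 genes was 0.25 with the 5 mice in the fit and 0.27 without them. The spread shared over the groups was estimated anew.

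Nr1h2 had the smallest unadjusted p of the 32 genes over the 7 comparisons. Its females had 29.6, 31.0, 32.7, 35.4 and 38.2 CPM with hAPOE3 and 29.2, 32.1, 34.8, 36.2 and 39.9 CPM with hAPOE4, and its males 36.5, 37.8, 38.9, 45.3 and 46.6 CPM with hAPOE3 and 35.0, 35.4, 36.6, 41.8 and 48.0 CPM with hAPOE4. The female values were shifted down in both genotypes but overlapped the male ones. The averaged log2 fold change was -0.25 ± 0.08 (95% interval -0.40 to -0.09, adjusted p = 0.286). The 3 highest males were S176, S158 and S156, of which S176 and S158 had the thalamic and myelin markers. Without the 3 males with thalamic markers the estimate was -0.14 (adjusted p = 0.603), and without the 5 hAPOE3 mice it was -0.15 (adjusted p = 0.878). With the myelin score as a covariate it was -0.16 (adjusted p = 0.485). Over the alternative settings, the choroid plexus score as a covariate among them, the estimate ran from -0.29 to -0.14. Mvd, the mevalonate diphosphate decarboxylase, had an averaged estimate of -0.24 ± 0.10 (adjusted p = 0.405), Srebf1 one of -0.24 ± 0.10 (adjusted p = 0.422) and Acat2 one of -0.17 ± 0.07 (adjusted p = 0.429). Without the 3 males these were -0.12, -0.12 and -0.13, with the myelin score as a covariate -0.16, -0.14 and -0.12, and without the 5 hAPOE3 mice -0.20, -0.21 and -0.16. Over the alternative settings they ran from -0.31 to -0.12 for Mvd, -0.29 to -0.12 for Srebf1 and -0.23 to -0.12 for Acat2. In hAPOE3 mice every female value of Acat2 (20.7 to 29.1 CPM) lay below every male value (29.7 to 36.7 CPM), the only gene of the 32 without overlap in a sex comparison (0.723% of all genes), and the estimate was -0.28 ± 0.10 (adjusted p = 0.805). Mylip was higher in females by the averaged estimate, 0.20 ± 0.09 (adjusted p = 0.454), or 0.13 without the 5 mice, with 14.4 to 22.1 CPM in females and 12.3 to 19.7 CPM in males. Within hAPOE3 mice Nr1h2 had an estimate of -0.30, Mvd of -0.34 and Srebf1 of -0.32 (adjusted p = 0.805 for each). Without the 5 mice these were -0.12, -0.29 and -0.26, and that of Acat2 was -0.28 (adjusted p = 1.00 for each).

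**Figure D4:**
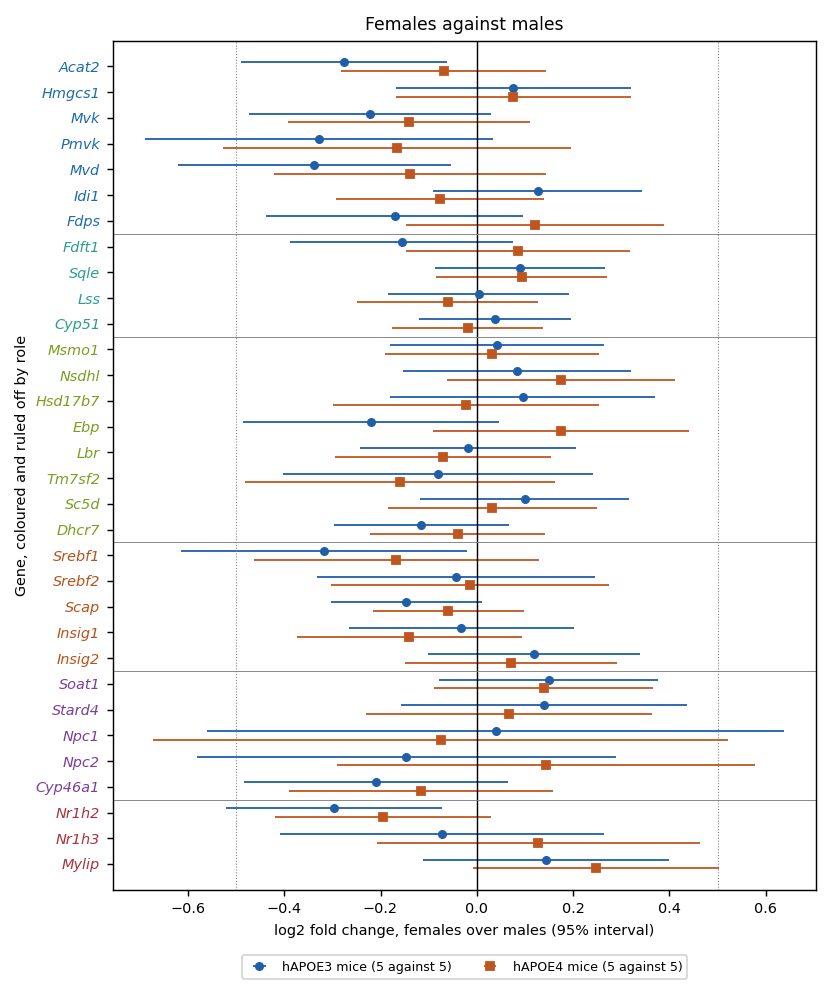
Log2 fold change of females over males for the 32 genes in hAPOE3 mice (circles) and hAPOE4 mice (squares), 5 against 5 mice. The 95% intervals are from the edgeR fit of all 20 mice, in which the groups share the estimate of spread, and dotted lines mark -0.5 and 0.5. In hAPOE3 mice the intervals of Nr1h2, Acat2, Mvd and Srebf1 lie below 0, and in hAPOE4 mice every interval includes 0.

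Whether the genotype effect differed between the sexes was tested as an interaction. With edgeR 0 of the 32 genes passed (0.184% of all genes), and 1, Ebp, had an unadjusted p under 0.05 (2.54% of all genes). DESeq2 called 0 as well, with 1 at an unadjusted p under 0.05. Ebp, the sterol isomerase, had 12.4, 13.3, 16.4, 16.5 and 17.6 CPM in males with hAPOE3 and 12.5, 12.9, 12.9, 13.3 and 13.8 CPM in males with hAPOE4. Its females had 10.5, 10.8, 11.9, 15.9 and 16.2 CPM with hAPOE3 and 13.4, 13.9, 14.0, 16.1 and 16.3 CPM with hAPOE4. In both hAPOE3 groups the highest values were those of the mice that stood apart. The genotype estimate was -0.22 ± 0.13 in males and 0.17 ± 0.13 in females, and their difference 0.39 ± 0.18 (95% interval 0.02 to 0.77, adjusted p = 1.00). Without the 5 mice the difference was 0.40 (adjusted p = 1.00), while its parts moved to 0.02 in males and 0.41 in females. Interaction intervals were wider than those within a sex, and lay within -0.5 and 0.5 for 19 of the 32 genes and within -1 and 1 for all 32.

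Some of the 32 genes also differed within the hAPOE3 mice, along the split that was made after the data were seen. Of the 32 genes, 12 (37.5%) did not overlap between the 5 mice that stood apart and the other 5 hAPOE3 mice, beside 21.5% of all genes. Lower in the 5 mice were 7 genes (10.7% of all genes): Npc1, Stard4, Srebf2, Hsd17b7, Soat1, Mylip and Sc5d. Higher were 5 genes (10.8% of all genes): Pmvk, Npc2, Ebp, Fdps and Mvk. The partner proteins Npc1 and Npc2 went opposite ways, with Npc1 at 27.3 to 41.6 CPM in the 5 mice and 68.4 to 81.5 CPM in the others, and Npc2 at 63.4 to 93.0 CPM against 42.2 to 62.0 CPM. Srebf2 had 105.6 to 157.6 CPM against 169.8 to 184.5 CPM, and Pmvk 35.5 to 43.6 CPM against 21.7 to 29.3 CPM. These mice were picked after the data were seen, by the oxidative phosphorylation list, and no test was made between the sets. The direction followed transcript length: Spearman's rho between the length of the transcript and the log2 difference was -0.81 over the 32 genes, as a description across genes that share the same mice. The 7 lower genes had transcripts of 3065 to 8371 bases, and the 5 higher ones had 1194 to 3299 bases, where Npc2 was the longest at 3299. The part of transcript length, RNA quality or cell content in these differences was not tested.

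**Figure D5:**
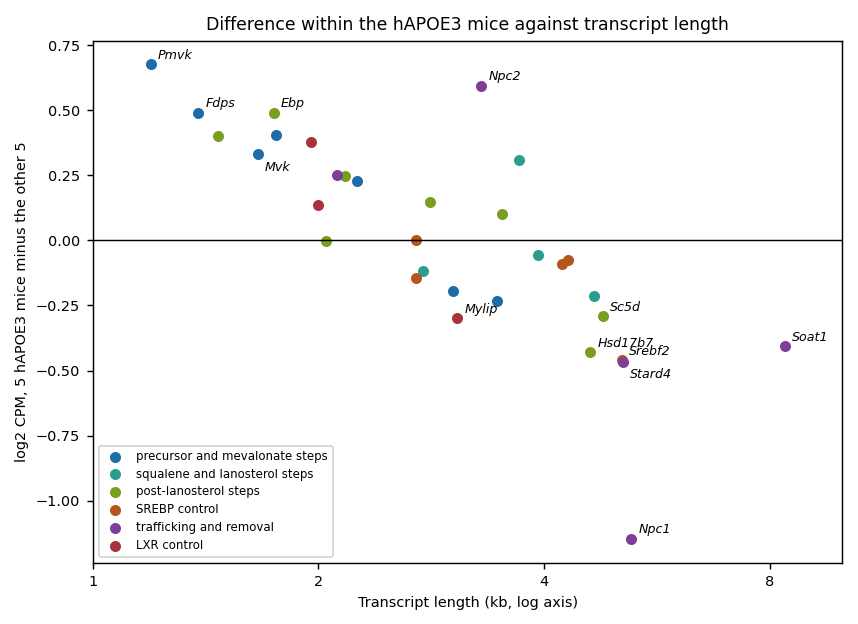
Difference in mean log2 CPM between the 5 hAPOE3 mice that stood apart and the other 5, against transcript length on a log axis, for the 32 genes coloured by role, where the 12 genes without overlap are named. Short transcripts such as Pmvk lie above 0 and long ones such as Npc1 below it, and Npc2 lies above the other genes of its length.

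Without the 5 mice, 2 hAPOE3 males and 3 hAPOE3 females remained beside the 10 hAPOE4 mice, and 0 of the 32 genes passed in any of the 7 comparisons. The number with an unadjusted p under 0.05 was 0 in males (6.66% of all genes), 6 in females (11.7%) and 7 on average (15.9%). The lowest adjusted p was that of Ebp in females, 0.0731, with a log2 fold change of 0.41 ± 0.09. Among the averaged estimates Stard4 (-0.26 ± 0.08, adjusted p = 0.123), Idi1 (-0.21 ± 0.08, adjusted p = 0.204) and Hsd17b7 (-0.18 ± 0.08, adjusted p = 0.310) had negative values. Those of Ebp (0.22 ± 0.07, adjusted p = 0.159), Acat2 (0.23 ± 0.09, adjusted p = 0.223), Nr1h3 (0.26 ± 0.11, adjusted p = 0.271) and Npc2 (0.34 ± 0.16, adjusted p = 0.307) were positive. These genes were named after their values in the smaller set were seen. The first 3 were lower in the 5 mice than in the other hAPOE3 mice (log2 difference -0.47, -0.19 and -0.43). The last 4 were higher in them (0.49, 0.23, 0.38 and 0.59). Leaving the 5 mice out thus moved each estimate toward the sign given here. It also lowered the SD of Ebp within the groups from 0.20 to 0.10. The adjusted p values take no account of how the mice were chosen.

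Enzymes of the pathway varied together only in part. Each gene was centred within its group, and correlations were computed over the 15 mice left without the 5, and over all 20, as descriptions of mice that differ in depth and in cell content. Among the 15 the only hAPOE3 males were S154 and S155, whose centred values mirror each other. The 15 points therefore carry less information than 15 separate mice. Where 2 of the 15 were left out, the values were not centred again. The median r of the 171 pairs of enzymes was 0.24 over 15 mice and 0.13 over 20, beside -0.01 and -0.03 for the 325 pairs with a regulator or a transport gene. Hmgcs1 and Msmo1 were the closest pair (r = 0.93 over 15 mice, rho = 0.95, and r = 0.89 without the 2 mice farthest from the median of Hmgcs1). Hmgcs1 also went with Hsd17b7 (r = 0.86) and Idi1 (r = 0.76), and Idi1 with Sc5d, the lathosterol oxidase (r = 0.83). Other close pairs were Mvd with Dhcr7, a late sterol reductase (r = 0.85), Pmvk with Tm7sf2, a C-14 reductase (r = 0.85), and Fdps with Fdft1 (r = 0.80). Mvk and Sc5d varied in opposite directions (r = -0.86), as did Cyp46a1 and Sc5d (r = -0.85). Without the 2 mice farthest from the median of the first gene of the pair, r fell to 0.57 for Hmgcs1 and Idi1, 0.63 for Mvd and Dhcr7, -0.63 for Mvk and Sc5d and -0.52 for Sc5d and Cyp46a1, so these pairs rested in part on 2 mice. For the sterol sensor genes r depended on the mice used. Between Srebf2 and Hmgcs1 it was 0.16 over 15 mice, 0.49 over 20 and 0.38 without 2 of the 15. Between Srebf2 and Sqle these values were 0.13, 0.43 and 0.31, and between Insig1 and Hmgcs1 -0.10, -0.15 and 0.39. Between Srebf2 and Scap they were 0.84, 0.82 and 0.65. Pmvk and Tm7sf2 both had short transcripts, of 1194 and 1471 bases, and the part of length in these correlations was not tested.

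A further 52 sterol genes, among them SREBP proteases, sterol exporters, lipoprotein receptors and bile acid enzymes, gave the surroundings of the pathway. With edgeR 1 of the 52 passed in males (0.621% of all genes), and 0 passed in the other 6 comparisons (0.0414% to 2.45% of all genes). The number at an unadjusted p under 0.05 was 3 in males (9.06% of all genes), 4 in females (10.1%) and 9 averaged over the sexes (17.9%), all higher with hAPOE4. As shares of the 52 genes these were 5.77%, 7.69% and 17.3%, at or below the shares of all genes. Between the sexes it was 4 in hAPOE3 mice (5.22% of all genes), 3 in hAPOE4 mice (5.8%) and 6 averaged over the genotypes (10%), and in the interaction it was 3 (2.54%), or 7.69%, 5.77%, 11.5% and 5.77% of the 52. The mean score of the 52 genes was -0.081, -0.100, -0.155, -0.180 and 0.068 in S147, S148, S156, S157 and S158. In the other hAPOE3 mice it was -0.058 to 0.104, and in hAPOE4 mice -0.080 to 0.143. The 52 were not refitted as a set without the 5 mice, so whether the genotype direction rests on them was not tested. DESeq2 called Erg28 in males, on average and between the hAPOE3 sexes, and Mbtps1, the first SREBP protease, on average. In edgeR the averaged estimate of Mbtps1 was 0.14 ± 0.05 (adjusted p = 0.126). The gene that passed with edgeR was Erg28, a scaffold protein that tethers the C-4 demethylation enzymes (chr12:85815448-85824550, minus strand). Its hAPOE3 males had 13.7, 15.1, 17.2, 17.8 and 27.2 CPM and its hAPOE4 males 26.7, 28.6, 30.5, 31.0 and 31.5 CPM. In females it had 24.8 to 35.5 CPM with hAPOE3 and 28.3 to 31.3 CPM with hAPOE4. Among hAPOE3 males 4 of 5 lay below the 16 other mice, and S155 lay among those 16. The log2 fold change in males was 0.70 ± 0.15 (adjusted p = 0.0190), and the interaction estimate was -0.69 ± 0.20 (adjusted p = 0.613). The call was lost without the 5 mice that stood apart (0.53, adjusted p = 0.464), without the 3 males with thalamic markers (0.71, adjusted p = 0.140), in a fit of the male groups alone (0.70, adjusted p = 0.194) and with the oocyte marker score as a covariate (0.69, adjusted p = 0.804). That score was 2.20 to 2.98 in 4 of the 5 hAPOE4 males and at most 0.135 in the 16 other mice, so it cannot be told apart from the group in males. The call was also lost without S156 (0.64, adjusted p = 0.0526) or S175 (0.69, adjusted p = 0.0565). Over the alternatives, mice left out included, the log2 fold change ran from 0.53 to 0.89.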

How the data were processed

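The authors prepared polyA libraries, sequenced paired ends and assigned reads to mouse transcripts with Salmon 0.91 and tximport. The deposited estimated counts are whole numbers per gene, used without rounding. The authors' second table holds DESeq2 normalized counts, a signal in which counts are scaled by factors that differ between genes and mice. These factors served only as an alternative. Groups came from the labels, 5 mice each. Counts of all 20 mice were fitted in edgeR 4.0.16 (R 4.3.3), with TMM, filterByExpr, 1 mean per group, glmQLFTest and Benjamini-Hochberg adjustment over 21724 genes, threshold 0.05. Standard errors come from the F statistic. CPM are TMM-scaled. Log2 CPM used a prior count of 2. DESeq2 1.42.0 was an alternative. Scripts were tested on simulated counts. The 32 genes and all lists were chosen with earlier results of these data known. Genes were named by smallest unadjusted p (under 0.05, up to 5 per comparison), largest average genotype change per role, or an adjusted p under 0.05. Positions, overlaps and transcript lengths (1 principal transcript per gene) came from GENCODE M21 (GRCm38). Whether counting used strand is not given in the sources used here. The E-box, the 20-gene list, the transcript length score and the alternatives that leave out 5 or 3 mice were added after the data were seen.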

Additional observations from a re-analysis of the deposited data

Results flagged for a closer look

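In 6 cases a single value lay far from the other 4 of their group, by a gap to the nearest value divided by the range of the group on the log2 scale (limit 0.71 for 5 values). Chance flags about 1 in 20 groups, or 6.4 of the 128 groups examined here, so 6 is no more than that. Of these, 2 came from the hAPOE4 male S178, which also had thalamic markers: Sc5d at 60.8 CPM (76.1 to 78.9 in the others) and Tm7sf2 at 23.4 CPM (13.9 to 15.9). Another 2 came from hAPOE3 mice that stood apart: Idi1 at 36.3 CPM in the male S158 (48.0 to 52.9) and Scap at 69.4 CPM in the female S148 (80.8 to 83.5). The other 2 came from hAPOE4 females: Mvk at 11.1 CPM in S166 (13.1 to 14.0) and Mylip at 14.4 CPM in S164 (19.6 to 22.1). No gene had a genotype effect that differed between the sexes past the threshold. None had hAPOE4 values wholly above the hAPOE3 values in 1 sex and wholly below them in the other. That had to be so, because no gene of the 32 separated the genotypes in either sex.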

How the results depend on the processing

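The count of 0 of 32 genes held in each of the 7 comparisons under every alternative tried. Each result here is 1 comparison under 1 setting. There were 53 over test, normalization, filter, gene-by-mouse factors, marker covariates and groups in the fit. A further 100 had 1 mouse left out, and 21 were added after the data were seen. The range over the mice left out was 0 to 0. No paired analysis was possible because each mouse belongs to 1 group and no label ties mice of different groups together, and the replicate numbers 1 to 5 only name the mice. Without the 5 hAPOE3 mice that stood apart, 20 of the 32 averaged genotype estimates turned, with 21 in males and 12 in females. In the sex comparisons 7 turned in hAPOE3 mice, 1 in hAPOE4 mice and 4 on average, and in the interaction 8. Among the genes named by rule in their own comparison 5 turned: Fdps in males to 0.023, and on average over the sexes Npc1 to -0.019, Pmvk to 0.16, Nsdhl to 0.018 and Mylip to -0.041. None of the 32 genes had passed the threshold before. The cause was not tested. Pmvk kept its sign with each single mouse left out (-0.24 to -0.13). Among these named estimates the lowest adjusted p under any alternative was 0.0801, for Npc1 with the transcript length score as a covariate (log2 0.27), and over all 32 genes without the 5 mice it was 0.0731, for Ebp in females. The lowest count of any of the 32 genes in a mouse was 96, for Nr1h3, so counting error is widest there.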
